A study of Mus musculus with 6 samples.

Results

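Fabp5, Sema5a, Erc2, Vwa1, Sntb1, Cd24a, Ccdc80, Trpm3, Lrg1 and Ctnna3 are 10 of the 33696 genes counted in single kidney cells of sham and DOCA-salt mice. They were chosen by the difference between the groups in their UMIs (unique molecular identifiers, 1 per captured RNA molecule) summed over endothelial cells, so their endothelial values are given as a description with no test. Each gene was found by its symbol in the files, and all 10 were present. The data came from whole kidneys of 3 sham and 3 DOCA-salt male C57BL/6 mice aged 8 to 10 weeks, with 1 library per mouse. The DOCA-salt mice carried a 50 mg pellet of deoxycorticosterone acetate, a mineralocorticoid, and drank 1% NaCl for 21 days. Their left kidney had been taken out a week before the pellet, while sham mice were operated on without losing it and drank plain water, so DOCA, salt and the loss of a kidney cannot be told apart here. The libraries were made with the 10x Genomics 3′ method from cells released by collagenase.

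Endothelial cells line the vessels of the kidney and differ by vessel. The peritubular capillaries around the tubules have a fenestrated endothelium rich in Plvap, which encodes the protein of the fenestral diaphragm. The glomerular capillaries carry Ehd3 and lack most Plvap, and arteries, arterioles and the descending vasa recta of the medulla express Sox17, a transcription factor of arterial endothelium. A gene that belongs to 1 of these vessels can change in a sum over all endothelial cells because the vessels contribute different shares of the cells, or because its level changes inside a vessel. Both were measured here.

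The files held 76774 barcodes, of which 60561 had at most 50% mitochondrial UMIs and passed the other limits, and 55630 remained after 4931 likely doublets were removed. A library totalled 93172739 to 137819127 UMIs, and between 33 and 69 barcodes were shared by any pair of libraries. Endothelial clusters held 4045 cells, 514 to 560 per sham mouse and 618 to 951 per DOCA-salt mouse, and their 15 endothelial markers summed to 11032 to 12165 CPM (UMIs per 1000000 UMIs of the same sum) in the sham mice and 13773 to 14660 CPM in the DOCA-salt mice. Clustered again, they gave 2140 Plvap-positive, 139 Ehd3-positive and 990 Sox17-positive cells, while 776 cells stayed unnamed, 177 of the sham and 599 of the DOCA-salt mice. The unnamed clusters had genes of other cells among their leading genes, such as Col1a1 and Aqp2, Kap and Miox, Egf and Slc12a1, or Rgs5 and Myh11, or the cycling gene Mki67. They remain in the endothelial sums but not in the values by subtype or at a fixed mix. The Ehd3-positive cells were few, with 13 to 36 per mouse. Sham mouse 2 stood apart from the other sham mice. It had 203 cells in a Plvap-positive cluster led by Npr3, Tll1 and Igfbp5 that held 18 cells of sham mouse 1 and 0 of sham mouse 3, and 11 cells in a similar cluster that held 199 and 186 of theirs. Among the cells outside the endothelium, an unnamed cluster of 588 cells with genes of several types came almost wholly from DOCA-salt mouse 2, with 574 cells. Markers of other cells moved with the groups inside the endothelial sums. The 6 fibroblast markers summed to 4.94 to 5.83 CPM in the sham mice and 29.8 to 69.2 CPM in the DOCA-salt mice, and as many as 3 of them were at 0 in a sham mouse. The 7 macrophage markers summed to 5.12 to 14.6 and 34.7 to 38.4 CPM, the 5 markers of cycling cells to 7.85 to 34.0 and 121 to 170 CPM, and the 13 proximal tubule markers to 2631 to 5896 and 2149 to 3845 CPM. Their part in the results was not tested.

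The members differ widely in size. On GRCm39 in the GENCODE vM39 annotation all 10 are protein-coding. Lrg1 (chr17:56426283-56429001), Fabp5 (chr3:10077602-10081674), Cd24a (chr10:43454280-43460264) and Vwa1 (chr4:155852606-155859155) span 2.72, 4.07, 5.99 and 6.55 kb. Ccdc80 (chr16:44913765-44951519) spans 37.8 kb. Sntb1 (chr15:55499784-55771046), Sema5a (chr15:32244919-32696487), Erc2 (chr14:27344274-28200509), Trpm3 (chr19:22116410-22972774) and Ctnna3 (chr10:63265877-64846348) span 271, 452, 856, 856 and 1580 kb, of which 0.977 to 4.53% is exonic. The 3 members that were higher in the DOCA-salt mice are all among the short ones, and the 5 that span over 250 kb were all lower. Over 12836 genes with a length, the rank correlation of length with the log2 change in the endothelial sums was 0.020, a value across genes of the same libraries. Of the 481 genes of 250 kb or more, 12.7% passed the test as higher and 17.3% as lower, against 4.94% and 2.96% of the 2735 genes under 10 kb. No member overlaps another counted gene on its own strand. The ends of Fabp5 transcripts match Gm6166 and Gm14328 at 96.9% and 95.9% over 392 and 391 bases, copies that the files do not count, so how shared reads were counted is uncertain. Transcript ends of Lrg1 and Vwa1 hold a repeat of 100 to 199 bases found in 69 and 123 other genes at 95% identity or more.

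RefSeq held the sequence before the annotated start for 5 of the 10 members, Sema5a, Erc2, Trpm3, Lrg1 and Ctnna3. The 250 bases before the start are shown for Lrg1, which of the 3 members with higher levels kept the largest part of its log2 change at a fixed mix of subtypes, and for Sema5a and Erc2, which shared 1 subtype and were lower together. They are on GRCm38.p6, at chr17:56121947-56122196 on the minus strand, chr15:32244563-32244812 on the plus strand and chr14:27622157-27622406 on the plus strand. Letters are read 5′ to 3′ towards the gene, and capitals mark GGGCGG, the GC box, on either strand.
Lrg1: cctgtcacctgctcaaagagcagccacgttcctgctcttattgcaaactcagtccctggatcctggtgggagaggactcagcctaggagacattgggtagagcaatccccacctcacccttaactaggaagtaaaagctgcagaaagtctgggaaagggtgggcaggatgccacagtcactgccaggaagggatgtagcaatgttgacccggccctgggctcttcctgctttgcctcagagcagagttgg
Sema5a: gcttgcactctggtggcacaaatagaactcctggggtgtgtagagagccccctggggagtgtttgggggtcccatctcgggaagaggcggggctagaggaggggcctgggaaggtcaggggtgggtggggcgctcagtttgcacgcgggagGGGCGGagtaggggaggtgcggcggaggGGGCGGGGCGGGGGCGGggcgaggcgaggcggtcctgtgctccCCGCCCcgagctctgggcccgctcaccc
Erc2: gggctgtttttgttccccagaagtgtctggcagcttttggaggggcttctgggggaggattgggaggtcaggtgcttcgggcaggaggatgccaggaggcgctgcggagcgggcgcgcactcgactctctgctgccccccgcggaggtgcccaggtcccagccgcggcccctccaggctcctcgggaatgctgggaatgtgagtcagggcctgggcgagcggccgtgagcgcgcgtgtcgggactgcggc
On both strands, 32.7% of the 32851 RefSeq windows of this length held GGGCGG. The TATA box TATAAA was in 12.4% of them. The STAT site TTCNNNGAA was in 7.02%, and the SOX site AACAAT was in 9.42%. The E-box CACGTG was in 6.02%, and a palindromic steroid receptor site in 0.0091%. The Sema5a window held GGGCGG 5 times, of which 1 pair overlaps by a base, and none of the other motifs, and the windows of Lrg1 and Erc2 held none of these motifs. The G and C content was 72.0% before Sema5a, 69.6% before Erc2 and 55.2% before Lrg1, with a median of 52.4% over all windows.

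The mix of the 3 subtypes differed between the groups with no overlap. Plvap-positive cells gave 26.6% ± 6.71 (SD, n = 3) of the UMIs of the 3 subtypes in the sham mice and 67.4% ± 7.21 (SD, n = 3) in the DOCA-salt mice. Sox17-positive cells gave 65.4% ± 6.25 and 29.7% ± 7.47, and Ehd3-positive cells 8.02% ± 0.998 and 2.93% ± 0.735. By number of cells the Plvap-positive share was 50.5% ± 8.55 and 77.0% ± 4.27, a smaller difference. The median depth of a Plvap-positive cell was 2825 to 3319 UMIs in the sham mice and 5319 to 7163 UMIs in the DOCA-salt mice, without overlap, and that of a Sox17-positive cell 7369 to 8585 and 8712 to 11864 UMIs, and the part of depth in the shares and levels given here was not tested. These shares are of cells freed by enzyme and caught in droplets, not of vessels in the tissue.

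**Figure D1:**
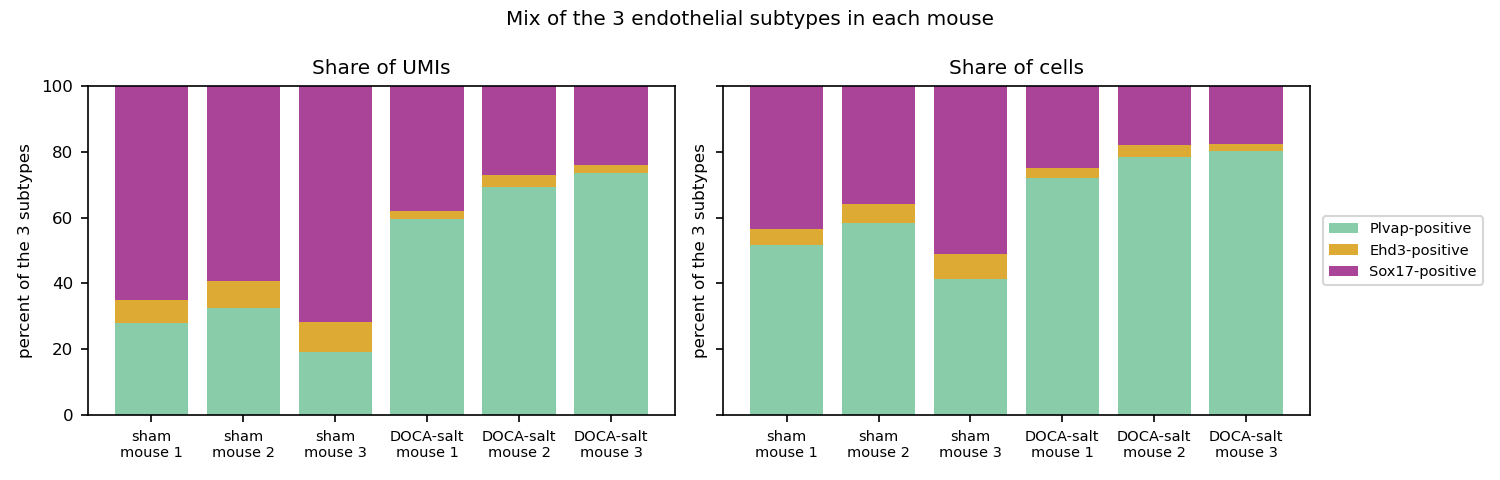
Stacked bars give, for each of the 6 mice, the percent of UMIs (left) and of cells (right) that the Plvap-, Ehd3- and Sox17-positive endothelial cells contribute to the 3 subtypes together. The Plvap-positive share of UMIs averages 26.6% in the sham mice and 67.4% in the DOCA-salt mice, and every DOCA-salt mouse lies above every sham mouse in both panels.

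Fabp5, Vwa1 and Lrg1 were the 3 members with higher levels in the DOCA-salt mice. Fabp5 encodes a cytoplasmic carrier of fatty acids. Over all endothelial cells it stood at 84.5, 103 and 69.5 CPM in sham mice 1 to 3 and at 568, 648 and 637 CPM in DOCA-salt mice 1 to 3, so that the groups were far apart, with a 7.20-fold ratio of means. In Plvap-positive cells the sham mice had 221, 231 and 226 CPM and the DOCA-salt mice 897, 912 and 861 CPM, a 3.94-fold ratio and a narrow spread inside each group. Ehd3-positive cells had 81.1 to 119 CPM in the sham mice and 190 to 286 CPM in the DOCA-salt mice. Sox17-positive cells had 25.8 to 36.2 CPM and 56.1 to 127 CPM. Summed per mouse, the 3 subtypes thus all showed higher Fabp5 in the DOCA-salt mice, on very different base levels. In Sox17-positive cells not every cluster did so, as given below. In sham mice 18.5% ± 1.05 (SD, n = 3) of the Fabp5 UMIs of all kept cells were in endothelial cells, and in DOCA-salt mice 62.5% ± 1.82.

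Vwa1 encodes a secreted protein of basement membranes with a von Willebrand factor A domain. Its endothelial level was 10.1, 11.9 and 10.2 CPM in the sham mice and 75.6, 122 and 95.4 CPM in the DOCA-salt mice, a 9.10-fold ratio and the largest of the 10 members. Plvap-positive cells held most of it, with 27.3, 29.7 and 42.3 CPM against 118, 169 and 133 CPM, a 4.24-fold ratio. In Sox17-positive cells it was lower by far, at 1.21 to 2.60 CPM in the sham mice and 4.99 to 9.11 CPM in the DOCA-salt mice. Ehd3-positive cells gave only 2 or 3 UMIs per mouse in both groups, too few for a ratio.

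Lrg1 encodes a secreted leucine-rich glycoprotein that acts on TGF-β signalling in vessels. Its endothelial level was 7.68, 9.90 and 8.43 CPM in the sham mice and 54.0, 62.9 and 45.0 CPM in the DOCA-salt mice, a 6.22-fold ratio. In Plvap-positive cells the values were 9.09, 16.5 and 13 CPM against 70.7, 82.8 and 59.5 CPM. In Sox17-positive cells they were 3.62 to 7.42 CPM against 16.6 to 32.5 CPM, again without overlap. Ehd3-positive cells overlapped, with 14.1 to 34.9 CPM in the sham mice and 30.9 to 61.2 CPM in the DOCA-salt mice from at most 15 UMIs per mouse. Thinned to 1000 UMIs per cell, 0.846% ± 0.146 (SD, n = 3) of the Plvap-positive cells of the sham mice and 6.14% ± 0.943 of those of the DOCA-salt mice had an Lrg1 UMI, against 2.96% and 25.6% before thinning. The thinned share was 0.331% and 0.214% in proximal tubule cells, a type outside the vessels, with median depths per mouse of 3978 to 9759 UMIs.

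Plvap-positive cells of the groups lay largely in different clusters. A cluster led by Apln and Aplnr held 34 cells of the sham mice and 581 of the DOCA-salt mice. A cluster led by Npr3, Tll1 and Igfbp5 held 221 and 309, most of the former from sham mouse 2. Inside that second cluster, pooled over mice, Fabp5 was at 240 CPM in sham and 795 CPM in DOCA-salt cells, and Vwa1 at 36.8 and 130 CPM. Lrg1 was at 39.7 CPM in its DOCA-salt cells, while the sham cells gave 2 UMIs. A cluster led by Selp had the highest Lrg1 of the large clusters, with 108 CPM in 43 sham cells and 189 CPM in 179 DOCA-salt cells. A Sox17-positive cluster with the vasa recta genes Aqp1 and Slc14a1 had the same Fabp5 level in both groups, 33.3 CPM in 183 sham cells and 34.1 CPM in 131 DOCA-salt cells. In a second cluster with these genes it was 97.0 CPM in 97 sham cells and 414 CPM in 77 DOCA-salt cells, from 62 and 249 UMIs. In a Sox17-positive cluster led by Pde3a and Cytl1 it was 27.7 CPM in 108 sham cells and 19.3 CPM in 45 DOCA-salt cells, from 27 and 10 UMIs. Sox17-positive cells of the groups differed by cluster too. Of a pair of clusters led by Epha6, Calca and Tspan8, one held 164 of the 627 sham cells and 9 of the 363 DOCA-salt cells, nearly all of the former from sham mice 1 and 3, and the other held 75 and 101, most of the former from sham mouse 2. A small cluster of 102 cells, 99 of them from DOCA-salt mice, had 1977 CPM of Fabp5 with Lyz2, Cd74 and H2-Aa, genes of macrophages and antigen presentation, among its leading genes. Without this small cluster and a 17-cell Ehd3-positive cluster led by Sfrp2 and Itga8, the log2 change of Fabp5 at the fixed mix, described with the other members, was 1.73 in place of 1.90. The cluster led by Selp had no Plvap-positive marker and 1 lymphatic marker, Ccl21a, among its 10 leading genes. Without it the fixed mix gave 2.68 in place of 2.23 for Lrg1 and 1.95 for Fabp5, and 8 higher and 11 lower pairs of member and subtype were without overlap, against 8 and 13. The Plvap-positive means of Lrg1 were then 4.03 and 53.7 CPM, a 13.3-fold ratio in place of 5.52. In the sham mice the cluster led by Selp held 23 Lrg1 UMIs. The clusters led by Apln, by Npr3, Tll1 and Igfbp5 and by Npr3, Tll1 and Car8 held 0, 2 and 6. The 13.3-fold ratio and the 2.68 thus rest on few sham UMIs, and nothing is read from their size. Without the clusters led by Epha6 the Sox17-positive ratio of Lrg1 was 2.46 in place of 3.96.

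**Figure D2:**
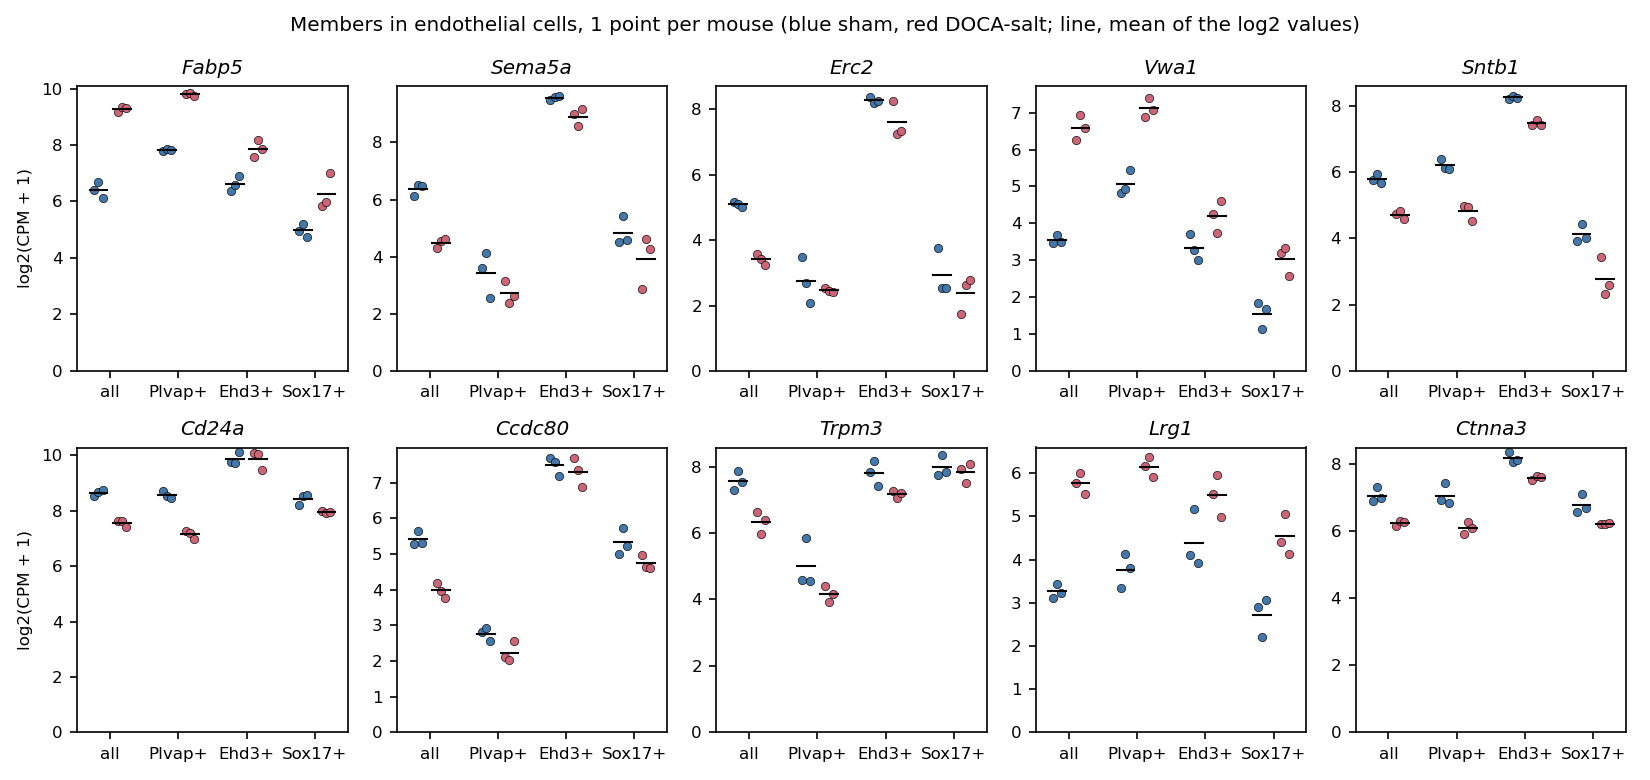
Each panel is 1 member, with log2(CPM + 1) on the vertical axis for all endothelial cells and for the Plvap-, Ehd3- and Sox17-positive cells, 1 point per mouse (blue sham, red DOCA-salt) and a line at the mean of the log2 values. Fabp5, Vwa1 and Lrg1 lie higher in the DOCA-salt mice, and Sema5a and Erc2 are highest by far in the Ehd3-positive cells of both groups.

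Sntb1, Cd24a and Ctnna3 had lower levels in the DOCA-salt mice, in Plvap-positive and in Sox17-positive cells alike, although for Cd24a and Ctnna3 the groups of Sox17-positive cells were apart only with the clusters led by Epha6 included. Sntb1 encodes a syntrophin, an adaptor of the dystrophin complex. Its endothelial level was 52.7, 61.1 and 49.4 CPM in the sham mice and 25.6, 27.2 and 23.0 CPM in the DOCA-salt mice. Plvap-positive cells had 82.9, 69.3 and 66.7 CPM against 30.4, 29.6 and 22.2 CPM, Ehd3-positive cells 296 to 314 against 170 to 188 CPM, and Sox17-positive cells 14.3 to 20.5 against 3.99 to 9.83 CPM. The groups were apart in each of the 3 subtypes. The Ehd3-positive values include a small cluster led by Sfrp2 and Itga8, with no marker of its own class among its 10 leading genes, whose 14 sham cells gave 36.8% of the Ehd3-positive UMIs of the sham mice and whose 3 DOCA-salt cells gave 12.6%. Without it Sntb1 had means of 254 and 179 CPM in Ehd3-positive cells, still without overlap, a ratio of 1.41, and its log2 ratio over all endothelial cells was -0.85 in place of -1.11.

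Cd24a encodes a small glycoprotein anchored in the membrane. It stood at 368, 408 and 426 CPM in the sham mice and 197, 199 and 168 CPM in the DOCA-salt mice. In Plvap-positive cells it was 416, 373 and 350 CPM against 154, 147 and 126 CPM, a 2.66-fold ratio, and in Sox17-positive cells 296 to 375 against 238 to 254 CPM. The clusters led by Epha6 were rich in it, with 582 CPM in the sham cells of the one and 521 and 410 CPM in the sham and DOCA-salt cells of the other. Without both, Sox17-positive cells had means of 188 and 137 CPM and the groups overlapped. In Ehd3-positive cells, where it was highest, the groups overlapped with means of 941 and 947 CPM.

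Ctnna3 encodes an α-catenin, a link between cadherins and actin. It stood at 117, 156 and 125 CPM in the sham mice and 70.1, 77.8 and 76.1 CPM in the DOCA-salt mice. Its groups were apart in all 3 subtypes, with ratios of sham over DOCA-salt of 2.00 in Plvap-positive and 1.51 in Ehd3-positive cells. In Sox17-positive cells most of it lay in the clusters led by Epha6, at 222 CPM in the sham cells of the one and 216 and 172 CPM in the sham and DOCA-salt cells of the other. Without both, the means were 25.4 and 12.3 CPM and the groups overlapped. In smooth muscle cells and pericytes Ctnna3 was at 2330 CPM in the sham mice and 2262 CPM in the DOCA-salt mice, and the 7 markers of those cells in the endothelial sums ranged from 29.7 to 102 CPM in the sham mice and from 38.9 to 221 CPM in the DOCA-salt mice.

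Sema5a, Erc2, Ccdc80 and Trpm3 were also lower over all endothelial cells, but they belong to the subtypes whose shares were smaller in the DOCA-salt mice. Sema5a encodes a transmembrane semaphorin, a guidance cue for axons and vessels. Its endothelial level was 68.4, 90.8 and 87.5 CPM in the sham mice and 18.9, 22.2 and 23.5 CPM in the DOCA-salt mice. In Ehd3-positive cells it was 722, 772 and 783 CPM against 506, 380 and 572 CPM, still without overlap but with a ratio of only 1.56. In Plvap-positive cells it was 4.88 to 16.5 CPM and in Sox17-positive cells 22.1 to 42.2 CPM in the sham mice, and in both the groups overlapped. Without the clusters led by Epha6 the Sox17-positive means were 6.13 CPM in the sham and 3.44 CPM in the DOCA-salt mice, and the groups were apart.

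Erc2, known as a scaffold of the active zone of synapses, showed the same distribution. Its endothelial level was 35, 33.4 and 31.1 CPM against 10.9, 9.80 and 8.46 CPM. In Ehd3-positive cells the sham mice had 333, 292 and 302 CPM and the DOCA-salt mice 307, 151 and 162 CPM, and DOCA-salt mouse 1 lay inside the sham range. Without the cluster led by Sfrp2 the means were 338 and 228 CPM and the groups were apart, and the log2 ratio over all endothelial cells was -1.47 for Erc2 and -1.63 for Sema5a in place of -1.77 and -1.93. The remaining subtypes overlapped as well, at 12.5 CPM or less in every mouse.

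Ccdc80 encodes a secreted matrix protein. It stood at 38.2, 49.1 and 38.7 CPM against 17.4, 14.7 and 12.7 CPM over all endothelial cells. In Ehd3-positive cells the groups overlapped with means of 181 and 162 CPM, and without the cluster led by Sfrp2 with 127 and 153 CPM, the opposite order. In Sox17-positive cells it was 31.2 to 52.4 CPM against 23.3 to 30.6 CPM, without overlap by a small margin. In Plvap-positive cells the margin was as small, at 4.88 to 6.60 CPM against 3.11 to 4.86 CPM from at most 18 UMIs per mouse. Without the clusters led by Epha6 the Sox17-positive groups overlapped, with means of 37.2 and 23.1 CPM. Without the cluster led by Selp the Plvap-positive groups did too, with 5.44 and 3.84 CPM. Trpm3, which encodes a cation channel opened by heat and pregnenolone sulfate, stood at 156, 230 and 186 CPM against 98.6, 61.1 and 82.1 CPM. In sham mice it averaged 255 CPM in Sox17-positive, 228 CPM in Ehd3-positive and 34.0 CPM in Plvap-positive cells. In Sox17-positive cells the groups overlapped, with 213 to 326 and 181 to 268 CPM, and in Ehd3-positive cells they did not, with 169 to 288 and 131 to 154 CPM. Without the clusters led by Epha6 the Sox17-positive means of Trpm3 were 120 CPM in the sham and 159 CPM in the DOCA-salt mice. This is the opposite order, and the groups still overlapped. In Plvap-positive cells Trpm3 was at 23.2, 56.1 and 22.8 CPM in the sham mice and at 20.4, 14.2 and 16.8 CPM in the DOCA-salt mice, a 1.99-fold ratio of sham over DOCA-salt. The groups did not overlap there, with sham mouse 2 far above the other sham mice, but they did without the cluster led by Selp.

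The number of members whose groups did not overlap was 3 higher and 5 lower in Plvap-positive cells, 2 higher and 4 lower in Ehd3-positive cells, and 3 higher and 4 lower in Sox17-positive cells. Of all genes past the filter on low counts in Plvap-positive cells, 14.7% did not overlap with higher and 11.7% with lower values in the DOCA-salt mice. In Ehd3-positive cells these shares were 7.09% and 5.81%, and in Sox17-positive cells 8.78% and 6.60%. Of the 10 members, 8 passed that filter in each subtype. The counts of members also hold pairs that did not pass it, Vwa1 in Ehd3- and Sox17-positive cells and Ccdc80 in Plvap-positive cells. The groups were apart in all 3 subtypes for Fabp5 as higher and for Sntb1 and Ctnna3 as lower. Of the 4542 genes past the filter in all 3 subtypes, 0.727% were apart as higher in each and 0.374% as lower, and since the members were chosen on the same contrast nothing is read from this. Vwa1 was apart in all 3 as well, but below the filter in Ehd3-positive cells, on 2 or 3 UMIs per mouse, and in Sox17-positive cells. With cells assigned by their own Plvap, Ehd3 and Sox17 UMIs in place of clusters, the pairs of member and subtype without overlap were 3 higher and 7 lower, against 8 and 13. Cells with none of these UMIs or with more than 1 kind drop out of that assignment.

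To set the mix of the 3 subtypes aside, the CPM of each subtype in each mouse was weighted with 1 fixed share per subtype, its mean share of the UMIs over the 6 mice. The mix of clusters inside a subtype was left as it was. The change from the mix alone was computed with each subtype held at its sham mean. For Lrg1 the log2 ratio of DOCA-salt over sham was 2.64 in the sum, 2.23 at the fixed mix and 0.30 from the mix alone. For Fabp5 these were 2.85, 1.90 and 0.90, and for Vwa1 3.19, 2.05 and 1.10. The higher levels thus remained at the fixed mix, at 3.72-fold for Fabp5, 4.14-fold for Vwa1 and 4.68-fold for Lrg1. For Sntb1 the log2 ratio was -1.11 in the sum, -1.21 at the fixed mix and 0.20 from the mix alone. For Ctnna3 it was -0.83, -0.77 and 0.0077, and for Cd24a -1.09, -0.75 and -0.063. These 3 genes kept most of their difference at the fixed mix of subtypes. Of the Plvap-positive UMIs, the cluster led by Apln gave 8.32% in sham and 52.7% in DOCA-salt mice. A cluster led by Npr3, Tll1 and Car8 gave 51.7% and 1.52%. In it, pooled over mice, Ctnna3 was at 119 CPM in 396 sham and 133 CPM in 47 DOCA-salt cells. In the cluster led by Npr3, Tll1 and Igfbp5 it was at 213 and 105 CPM. Sntb1 and Cd24a were lower in the DOCA-salt cells of both. The part of these shares was not tested. For Sema5a the log2 ratio, in the same order, was -1.93, -0.71 and -1.12, for Erc2 -1.77, -0.59 and -1.02, for Ccdc80 -1.49, -0.46 and -1.0, and for Trpm3 -1.24, -0.26 and -0.88. In these 4 genes the mix alone gave more of the difference than the levels at the fixed mix did, and for Trpm3 the groups overlapped at the fixed mix. The sums here include the unnamed cells, in which Erc2, Sema5a and Ccdc80 were 9.26-, 3.63- and 3.42-fold lower in the DOCA-salt mice without overlap. For Erc2 26 of the sham UMIs there lay in 20 cells of the cluster led by the proximal tubule genes Kap and Miox. The unnamed clusters led by Mgp and by Egf gave 4 each. Before thinning, 34.3% of the proximal tubule cells of the sham mice had an Erc2 UMI. The part of tubule RNA in this value was not tested. Over the 3 subtypes alone, at their own mix, the log2 ratio was -1.64 for Erc2, -1.92 for Sema5a and -1.46 for Ccdc80. In all, 6 of 10 members kept at least 0.5 of their log2 change at the fixed mix. Of the 1329 genes that passed the test in the endothelial sums and had a value at the fixed mix, 59.4% did so. The number of members was 6 again with any 1 mouse left out. With no doublet removal it was 8, since Sema5a had -1.24 in the sum and -0.81 at the fixed mix and Erc2 had -1.25 and -0.87. Without sham mouse 2, which stood apart, the log2 ratio at the fixed mix was 1.93 for Fabp5, 1.97 for Vwa1, 2.36 for Lrg1, -1.22 for Sntb1, -0.78 for Cd24a and -0.62 for Ctnna3. It was -0.59 for Sema5a, -0.66 for Erc2 and -0.31 for Ccdc80, while Trpm3 came to -0.016.

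**Figure D3:**
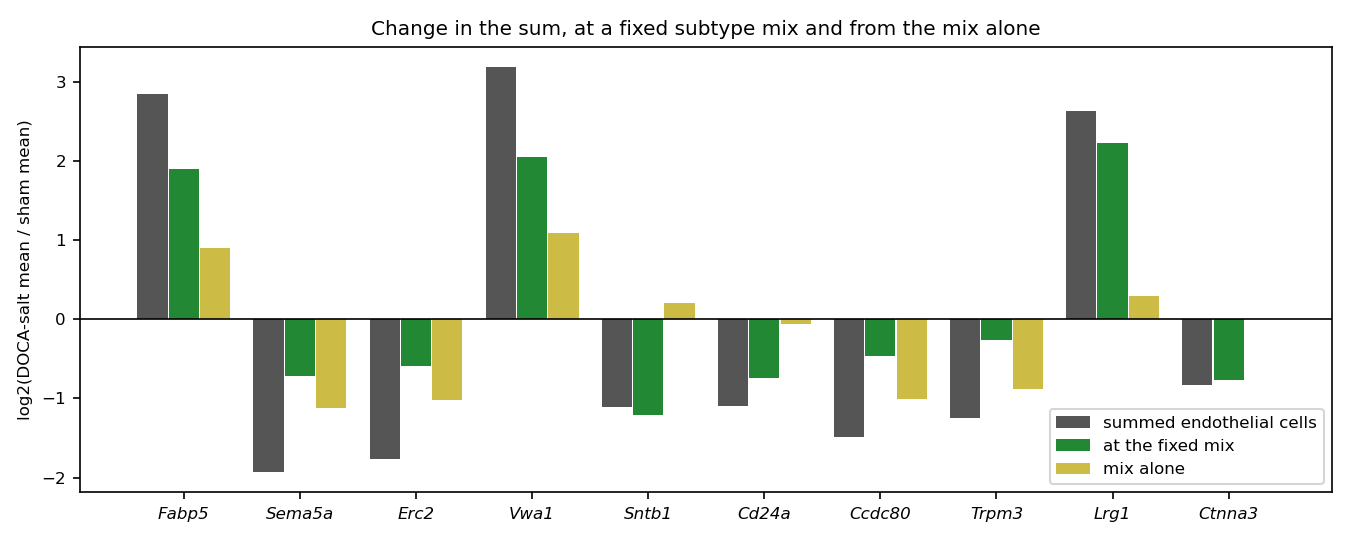
For each member the bars give the log2 ratio of the DOCA-salt mean over the sham mean in all summed endothelial cells (grey), at a fixed mix of the 3 subtypes (green) and from the mix alone with each subtype at its sham level (yellow). For Sema5a, Erc2, Ccdc80 and Trpm3 the yellow bar is longer than the green one, and for the other 6 members the green bar is longer.

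Outside the endothelium the members could be tested, since those cells had no part in their choice. UMIs were summed per mouse over all other cells and compared with the quasi-likelihood test of edgeR, and p was adjusted by Benjamini-Hochberg across the whole table. These sums hold a cluster of 37 cells named podocyte, 36 of them from DOCA-salt mouse 2, with Tm4sf1, Emcn and Fabp4 among its leading genes. Endothelium was its second class by markers, with a score of 2.539 against 2.544. Its part was not tested. All 10 members passed the filter on low counts. Of the 10, 2 were higher and 2 lower at an adjusted p under 0.05, while 16.5% of all genes passed, 11.5% as higher and 5.00% as lower. Ccdc80 rose by a log2 change of 1.90 ± 0.19 (SE, adjusted p = 0.00075), from 2.87, 2.62 and 2.85 CPM in the sham mice to 8.35, 11.5 and 13.7 CPM in the DOCA-salt mice. This is against its direction in the endothelium. Fibroblasts, in which Ccdc80 was at 164 CPM ± 10.8 (SD, n = 3) in the DOCA-salt mice, made up 0.137% ± 0.0918 of the cells in the sham mice and 2.90% ± 0.392 in the DOCA-salt mice, and their part in this rise was not tested. Sema5a rose by 0.53 ± 0.12 (adjusted p = 0.022). Vwa1 fell by 0.96 ± 0.20 (adjusted p = 0.016) and Erc2 fell by 0.70 ± 0.14 (adjusted p = 0.011). Fabp5 had a log2 change of 0.55 ± 0.16 with an adjusted p of 0.057. Both counts depended on single mice. The higher count was 1 without sham mouse 1, sham mouse 3, DOCA-salt mouse 2 or DOCA-salt mouse 3, where Sema5a missed the threshold (adjusted p up to 0.096 over the alternatives), and the lower count was 1 without sham mouse 1 and 0 without DOCA-salt mouse 3.

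In 12 single cell types, 65 of 120 pairs of member and type passed the filter, of which 9 were higher and 5 lower at an adjusted p under 0.05 in edgeR. Over these types together 5.33% of the gene tests passed, with 0% in neutrophils and B cells, 0.8% in the thin limb (0.568% higher), 1.05% in cycling cells and 1.42% in the thick ascending limb. Of the 14 pairs, 7 had the direction of the endothelial sum and 7 the other. The lower count was 3 without DOCA-salt mouse 1, 3 without DOCA-salt mouse 2 and 2 without DOCA-salt mouse 3.

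Proximal tubule cells held 5 of these pairs, with 7.49% of genes passing as higher and 3.57% as lower, 11.1% in all. The groups lay in part in different clusters. A cluster led by C3, Slc13a1 and Ptgds, with Vcam1 among its leading genes, held 20, 36 and 52 cells of the sham mice and 246, 291 and 329 of the DOCA-salt mice. A cluster led by Miox and Akr1c21 with a median of only 697 UMIs per cell held 1512, 548 and 2028 against 313, 599 and 972 cells. Their part in the results of these cells was not tested. Sema5a rose by a log2 change of 1.26 ± 0.15 (adjusted p = 0.0019), from 49.0, 50.7 and 51.8 CPM in the sham mice to 98.9, 146 and 147 CPM in the DOCA-salt mice. Trpm3 rose by 1.21 ± 0.15 (adjusted p = 0.0025), from 6.52, 7.0 and 8.75 CPM to 18.2, 17.2 and 19.8 CPM. Ccdc80 rose by 1.70 ± 0.33 (adjusted p = 0.015) from 0.725 CPM ± 0.306 to 2.49 ± 0.643 (SD, n = 3). The 6 fibroblast markers summed to 0.334 to 2.35 CPM in the proximal tubule cells of the sham mice and to 11.9 to 19.1 CPM in those of the DOCA-salt mice, and their part in the rise of Ccdc80 was not tested. Sema5a, Trpm3 and Ccdc80 were lower in the endothelial sums of the same mice. Vwa1, higher in endothelium, fell by 1.03 ± 0.20 (adjusted p = 0.014), from 20.8, 12.8 and 18.1 CPM to 10.5, 9.10 and 7.28 CPM. Erc2 fell by 0.66 ± 0.14 (adjusted p = 0.018), but without any of sham mouse 1 and DOCA-salt mice 1, 2 and 3 it missed the threshold. Vwa1 missed it without sham mouse 1 or DOCA-salt mouse 3, and Ccdc80 without DOCA-salt mouse 2 or 3, with adjusted p up to 0.10 for Erc2 and 0.060 for the others over the alternatives. The groups did not overlap for any of the 5 genes.

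Fabp5 passed the test in 3 other types. In macrophages it rose by 1.43 ± 0.30 (adjusted p = 0.017), from 39.6, 110 and 40.8 CPM to 143, 176 and 224 CPM, where 3.30% of genes passed, 1.95% as higher and 1.35% as lower. Sham mouse 2 had more than the other sham mice, and the call was lost without sham mouse 1, sham mouse 3 or DOCA-salt mouse 3 (adjusted p up to 0.11). No cluster was named monocyte or dendritic cell, and 1 macrophage cluster of 267 cells had dendritic cells as its second class by markers. A macrophage cluster with a median of 770 UMIs held 13, 13 and 12 cells of the sham mice and 38, 161 and 182 of the DOCA-salt mice. Their part in this rise was not tested. In intercalated cells, which move acid and base, Fabp5 rose by 1.05 ± 0.20 (adjusted p = 0.012) between means of 7.43 and 15 CPM, where 5.66% of genes passed, 3.08% as higher and 2.58% as lower. The call was lost without sham mouse 1 or DOCA-salt mouse 3, and with at most 20% mitochondrial UMIs, where the log2 change was 1.22 and the adjusted p 0.11. In the distal convoluted tubule it rose by 1.18 ± 0.35 (adjusted p = 0.044) from 18 UMIs in all sham mice together, where 4.72% of genes passed as higher, and the call was lost with any 1 mouse left out (adjusted p up to 0.17). The call was also lost in DESeq2, with the replicate block and with no doublet removal. All these levels were below the 617 CPM ± 43.0 (SD, n = 3) of the endothelial sums of the DOCA-salt mice. The part of endothelial RNA in these rises was not tested.

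Principal cells are the cells of the collecting duct in which mineralocorticoids act on sodium uptake. Clusters led by different genes were given this name. One of 1134 cells was led by Aqp2 and Fxyd4, and one of 809 cells by S100g, Slc8a1 and Klk1. The latter had the distal convoluted tubule as its second class by markers. Ccdc80 had its largest log2 change in this joint class. Its log2 change there was 3.89 ± 0.54 (adjusted p = 0.00070), with 2, 0 and 3 UMIs in the sham mice and 20, 30 and 21 UMIs in the DOCA-salt mice, where 8.15% of genes passed as higher and 6.61% as lower. With so few UMIs in the sham mice, Ccdc80 passed the filter on low counts only through the DOCA-salt mice, where it was high. The call and the size of this change thus depend on that filter, and nothing is read from its size. The 6 fibroblast markers summed to 0.272 to 1.97 CPM in the principal cells of the sham mice and to 10.7 to 28.8 CPM in those of the DOCA-salt mice, and their part in this rise was not tested. Cd24a rose in the distal convoluted tubule by 1.11 ± 0.17 (adjusted p = 0.00039), from 138, 111 and 147 CPM to 369, 314 and 270 CPM, where 7.72% of genes passed in either direction. In smooth muscle cells and pericytes it fell by 0.85 ± 0.17 (adjusted p = 0.014), from 257, 294 and 313 CPM to 148, 172 and 175 CPM, where 1.76% of genes passed. That call was lost without sham mouse 3, DOCA-salt mouse 1 or DOCA-salt mouse 2 (adjusted p up to 0.10).

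Sntb1 and Trpm3 fell in intercalated cells, by 1.44 ± 0.25 (adjusted p = 0.0085) and by 0.81 ± 0.14 (adjusted p = 0.0086). For Sntb1 the call was lost with at most 20% mitochondrial UMIs, where the log2 change was -0.87 and the adjusted p 0.41. Trpm3 was at 133, 118 and 164 CPM in the sham mice and at 77.4, 77.1 and 78.3 CPM in the DOCA-salt mice, and its call was lost without DOCA-salt mouse 3 and with at most 20% mitochondrial UMIs, where the log2 change was -0.69 and the adjusted p 0.059. None of the 3 calls in intercalated cells was thus kept at that limit. Clusters led by different genes were given this name too. One led by Lsamp and Slc26a4 held 142, 128 and 150 cells of the sham mice and 109, 77 and 89 of the DOCA-salt mice. One led by Aqp6 and Atp6v1g3, with Slc4a1 next, held 132, 83 and 133 against 126, 125 and 167 cells. The part of this mix in the 3 calls was not tested. In T and NK cells, where 1.79% of genes passed, 1.09% as higher, Sntb1 rose by 0.99 ± 0.21 (adjusted p = 0.019), from 157, 138 and 104 CPM to 310, 216 and 285 CPM. This call was lost without sham mouse 3, DOCA-salt mouse 1 or DOCA-salt mouse 3 (adjusted p up to 0.12). A cluster led by Ccl5, Gzma and Xcl1, genes of NK cells among them, held 24, 30 and 10 of these cells in the sham mice and 8, 5 and 6 in the DOCA-salt mice. Without it the log2 change was 0.80 with an adjusted p of 0.11, so that the call was lost. Lrg1 passed the filter only in the proximal tubule and Ctnna3 only there and in smooth muscle cells and pericytes, and neither passed the edgeR test. For Lrg1 in the proximal tubule the log2 change was -0.59 ± 0.23, with an unadjusted p of 0.033 and adjusted p of 0.14 (0.0090 to 0.35 over the alternatives). For Ctnna3 in smooth muscle cells and pericytes it was -0.088 ± 0.15.

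**Figure D4:**
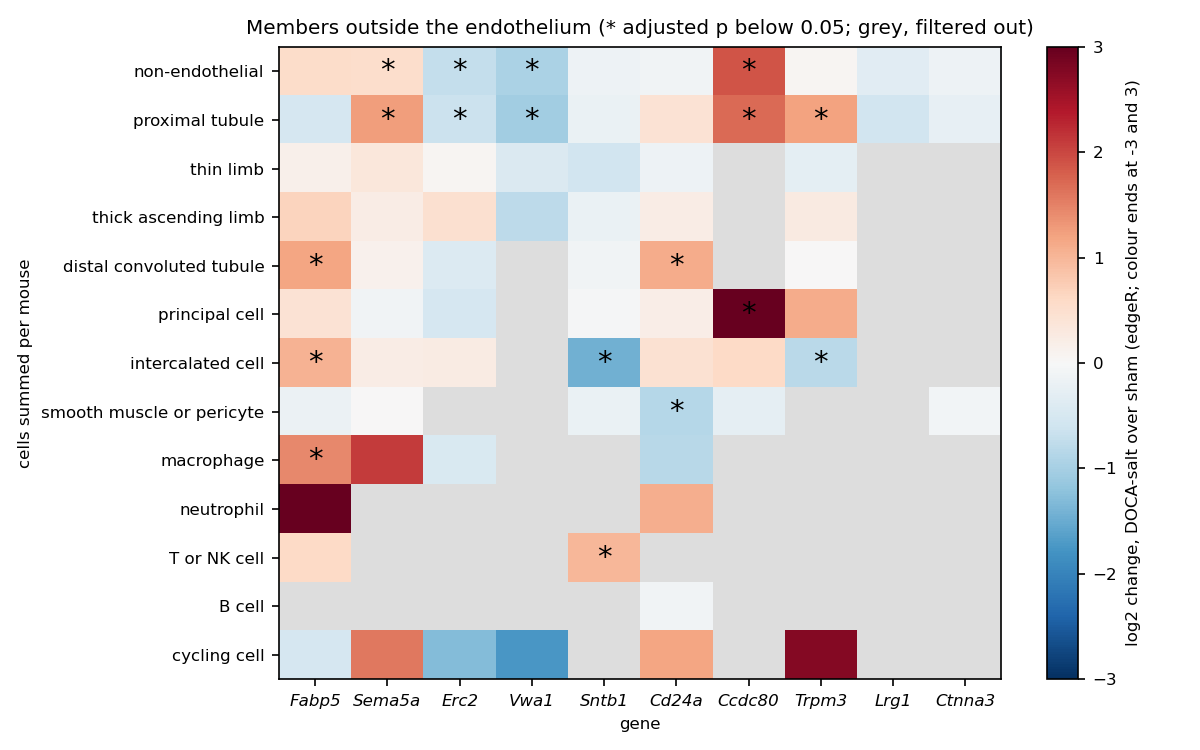
Colours give the log2 change of each member (columns) with DOCA-salt in all non-endothelial cells and in 12 cell types (rows), fitted with edgeR on sums per mouse; asterisks mark an adjusted p under 0.05 and grey fields a gene that did not pass the filter. Sema5a, Trpm3 and Ccdc80 are red and Vwa1 and Erc2 blue in the proximal tubule, and of the fields with an asterisk Ccdc80 in principal cells is the deepest red. That field rests on few UMIs in the sham mice and passed the filter only through the DOCA-salt mice. Unmarked deep fields, such as Fabp5 in neutrophils, did not pass the test.

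For each member the genes with the most similar levels were taken by Pearson's r of log2(CPM + 1) over 30 points, 15 cell sets in each group, which share their libraries. Vwa1 was most like Apln (r = 0.87), a vessel growth peptide, and Npas3 (r = 0.80). Fabp5 was most like Lysmd4 (r = 0.85) and Dock4 (r = 0.83). Lrg1 was most like Tmem26 (r = 0.89) and 6430548M08Rik (r = 0.88). Sema5a (r = 0.90) and Erc2 (r = 0.88) shared Gnai1 as the most similar gene, followed by Ddit4l (r = 0.85) and Prxl2a (r = 0.83). Ctnna3 was most like Cabp1 (r = 0.96) and Ebf3 (r = 0.95). Ccdc80 was most like Lsmem2 (r = 0.93) and Adamts5 (r = 0.90), Trpm3 like Rfk and Fam171a1 (both r = 0.85), Cd24a like Ckap4 (r = 0.85) and Map4k5 (r = 0.83), and Sntb1 like Cnst (r = 0.80) and Ptpn9 (r = 0.79).

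Genes that work beside the members were taken from 10 lists, with 1 more list for the response to dissociation, and tested in the endothelial sums with edgeR over all genes. Of 249 genes 201 passed the filter, and of these 41 (20.4%) were higher and 13 (6.47%) lower at an adjusted p under 0.05. Over all genes the shares were 6.42% and 3.96%. The lists were chosen with earlier results of these data known, and were tested in the same cells and contrast as chose the members. Nothing is read from the difference between these shares. Without DOCA-salt mouse 3 there were 27 higher and 8 lower, and without sham mouse 2 there were 23 lower. These are sums over all subtypes, so for most genes described the log2 ratio at the fixed mix is given after the tested one. The median log2 change over all genes tested was -0.00056. Of the genes named for the lists, Bambi, Bmp6, Hsph1, Jup, Lcn2, Plxna4, Pparg, Ppfia2, Rab3a and Sema4g missed the threshold with at least 1 mouse left out. Sham mouse 1 did so for Bambi, Jup, Lcn2, Plxna4, Pparg, Rab3a and Sema4g, and sham mouse 3 for Bambi, Bmp6, Hsph1, Jup, Plxna4 and Sema4g. DOCA-salt mouse 1 did so for Bambi, Hsph1, Pparg, Ppfia2 and Sema4g, mouse 2 for Bambi, Bmp6, Ppfia2 and Sema4g, and mouse 3 for Bmp6, Hsph1, Jup, Plxna4, Pparg, Ppfia2 and Sema4g. Over the alternatives the highest adjusted p of these 10 genes ranged from 0.051 for Lcn2 to 0.18 for Sema4g.

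Beside Vwa1 and Ccdc80, the list of vessel wall matrix had 11 of 24 genes higher, 2 lower and a median log2 change of 0.62, while DESeq2 called 11 higher and 5 lower. Nid2, a nidogen of basement membranes, rose by 1.92 ± 0.17 (SE, adjusted p = 0.00032; 1.10 at the fixed mix), from 16.7 CPM ± 4.48 to 62.2 ± 4.55 (SD, n = 3). Col15a1, a collagen beneath endothelium, rose by 1.90 ± 0.20 (adjusted p = 0.00041; 1.04 at the fixed mix). Lamb1, a laminin chain, rose by 1.85 ± 0.18 (adjusted p = 0.00039; 1.46 at the fixed mix). Col4a1, a chain of the main collagen of basement membranes, rose by 1.67 ± 0.16 (adjusted p = 0.00033; 1.11 at the fixed mix), from 338 CPM ± 45.1 to 1065 ± 198. The 2 that fell were Fbln2 and Fbln5, named here after their values were seen, which were highest in Sox17-positive cells. The fixed mix gave -0.35 for Fbln2, and for Fbln5 it was 0.083.

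The list of adhesion molecules had 6 of 19 genes higher and 0 lower, with a median of 0.23; 9 of the 19 had an unadjusted p under 0.05 and DESeq2 also called 6 higher and 0 lower. The leukocyte selectins led it. Sele rose by 2.11 ± 0.21 (adjusted p = 0.00039; 1.34 at the fixed mix), from 10.4 CPM ± 2.57 to 45.4 ± 8.40. Selp rose by 1.97 ± 0.27 (adjusted p = 0.0016; 1.00 at the fixed mix). Mcam and Cd34 rose by 0.92 ± 0.18 (adjusted p = 0.0082) and 0.75 ± 0.15 (adjusted p = 0.0089), with 0.96 and 0.49 at the fixed mix.

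Beside Fabp5, 2 of 23 genes of fatty acid handling were higher and 2 lower, with a median of -0.096. Fabp4, the other main fatty acid carrier of capillaries, rose by 1.45 ± 0.16 (adjusted p = 0.00048; 0.89 at the fixed mix), from 2177 CPM ± 141 to 5890 ± 825. Gpihbp1, which holds lipoprotein lipase on the capillary wall, rose by 1.39 ± 0.18 (adjusted p = 0.0013; 0.56 at the fixed mix). Lpl, the lipase itself, fell by 0.84 ± 0.12 (adjusted p = 0.0021) in the sums. It was led by Ehd3-positive cells, and at the fixed mix its log2 ratio was 0.31, of opposite sign. Pparg fell by 0.71 ± 0.16 (adjusted p = 0.018), with -0.14 at the fixed mix.

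Beside Lrg1, the TGF-β and BMP list had 5 of 29 genes higher and 2 lower, with a median of 0.24. Tgfb2 fell by 1.63 ± 0.20 (adjusted p = 0.00099; -0.75 at the fixed mix), from 184 CPM ± 36.4 to 59.4 ± 14.1. Smad1, which carries the BMP signal, rose by 0.79 ± 0.13 (adjusted p = 0.0045; 0.41 at the fixed mix), and Bambi by 0.70 ± 0.15 (adjusted p = 0.016; 0.39 at the fixed mix). Bmp6 fell by 0.72 ± 0.17 (adjusted p = 0.023), with 0.23 at the fixed mix. The acute phase list had 3 of 16 genes higher and 1 lower, with a median of 0.18. C3 rose by 2.92 ± 0.54 (adjusted p = 0.0064), Lcn2 by 2.35 ± 0.44 (adjusted p = 0.0076) and Timp1 by 1.77 ± 0.29 (adjusted p = 0.0037), all 3 from under 3 CPM in the sham mice to 6.19, 3.56 and 9.72 CPM. The fibroblast and macrophage markers given above were also higher in these sums, and their part was not tested. Lifr fell by 0.85 ± 0.15 (adjusted p = 0.0048; -0.30 at the fixed mix).

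Beside Sema5a, 8 of 25 semaphorins, plexins and neuropilins were higher and 2 lower, with a median of 0.26. Nrp2 rose by 1.16 ± 0.20 (adjusted p = 0.0051), Sema3d by 0.95 ± 0.15 (adjusted p = 0.0029) and Plxna4 by 0.79 ± 0.16 (adjusted p = 0.010), with 0.12, 0.37 and 0.22 at the fixed mix. Sema4g fell by 1.53 ± 0.42 (adjusted p = 0.040) from 3.51 to 1.23 CPM. Beside Erc2, 1 of 11 active zone genes was higher and 2 were lower, with a median of -0.28 in the sums and, with the opposite sign, 0.12 at the fixed mix. Rab3a fell by 1.18 ± 0.24 (adjusted p = 0.011; -0.74 at the fixed mix) and Unc13b fell by 0.79 ± 0.13 (adjusted p = 0.0036), with 0.12 at the fixed mix. Ppfia2 rose by 1.07 ± 0.27 (adjusted p = 0.032; 0.13 at the fixed mix).

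Beside Ctnna3, 3 of 17 catenins and cadherins were higher and 0 lower, with a median of 0.012; 6 had an unadjusted p under 0.05 and DESeq2 also called 3 higher and 0 lower. Nectin2 rose by 0.94 ± 0.15 (adjusted p = 0.0033; 0.43 at the fixed mix) and Jup by 0.76 ± 0.16 (adjusted p = 0.011; 0.28 at the fixed mix). Cdh11, a cadherin of mesenchymal cells, rose by 3.61 ± 0.64 (adjusted p = 0.0054), but only from 0.185 to 2.69 CPM, and the fibroblast markers were higher in the same sums; their part was not tested. Beside Trpm3, the 9 TRP channels past the filter had a median of -0.17 in the sums and 0.049 at the fixed mix. The calls of this list are not given here. Beside Sntb1, 0 of 9 genes of the dystrophin complex passed in edgeR or in DESeq2, 3 had an unadjusted p under 0.05, and the median was -0.20. Among the 21 genes of the dissociation response, Hsph1 rose by 0.86 ± 0.19 (adjusted p = 0.014), Egr1 fell by 0.84 ± 0.15 (adjusted p = 0.0056) and the median was -0.31, with -0.027 at the fixed mix. Of these 21 genes 8 had an unadjusted p under 0.05, and DESeq2 called 1 higher and 5 lower against 1 and 1 in edgeR.

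**Figure D5:**
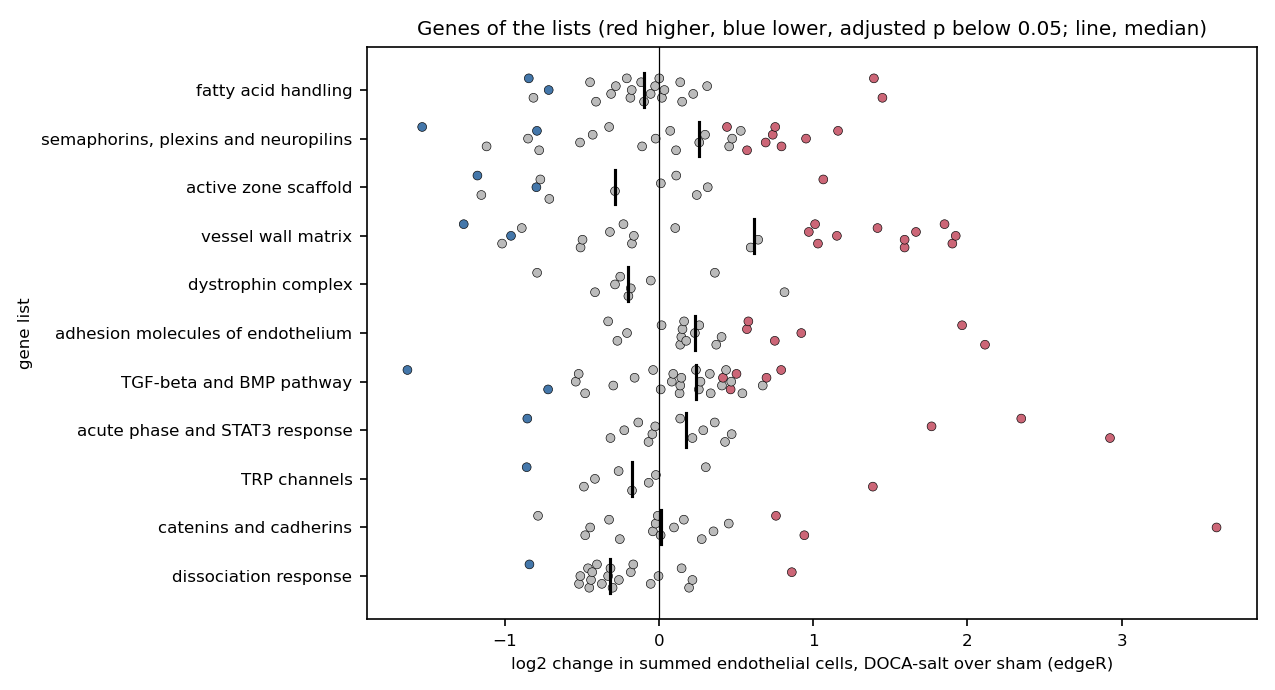
Each point is 1 gene of a list (rows) at its log2 change in summed endothelial cells on the horizontal axis, from edgeR over all genes, in red or blue where it passed the test as higher or lower and in grey where it did not; a line marks the median of the list. The vessel wall matrix has the highest median, 0.62, with 11 genes in red, and no gene of the dystrophin complex is coloured.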

How the data were processed

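Single kidney cells of 3 sham and 3 DOCA-salt mice were sequenced with 10x Genomics 3′ v3.1 kits. Per the labels, the authors ran Cell Ranger on GRCm39 and deposited raw UMI counts in a matrix per mouse, without normalization. The file headers name Cell Ranger 8.0.1 and the submitters' processing notes 9.0.0. The release of the annotation and the counting of introns are not given in the sources used here.

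Barcodes needed at least 170 genes and 500 UMIs, at most 50% mitochondrial and 5% hemoglobin UMIs. Scrublet scores in scanpy 1.11.5 removed 0.8% per 1000 barcodes. Cells were scaled to 10000 UMIs. The 2000 most variable genes, without the members, gave 30 components and 15 neighbors for Leiden clusters at resolution 1 (Python 3.11.15, python-igraph 0.11.9). Clusters were named from marker lists, endothelial ones after a second clustering, and one stayed unnamed with fewer than 3 detected markers, with at least 2 markers of another class and more than of its own among its top 10 genes, with a marker score of 0 or below, or with median UMIs more than 3 times below its samples' and none of its own markers there. Low depth alone thus left names in place: a proximal tubule cluster of 5972 cells had a median of 697 UMIs, a macrophage one of 419 cells 770 and an endothelial one of 335 cells 741. The cluster led by Selp was named with 0 own markers and 1 of another class among its top 10 genes. UMIs were summed per mouse and tested with edgeR 4.0.16 (filterByExpr, TMM, quasi-likelihood F test) in R 4.3.3, over types with at least 10 cells in every mouse. CPM are UMIs per 1000000 UMIs of the same sum, without TMM. The SE is the log2 change over the square root of F. Transcripts were compared with blastn 2.17.0. Counts per cell limit what can be seen, and zeros or single UMIs show only that a gene was not detected at this depth. P-values measure the spread between mice. The scripts were checked on data with known answers.

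The members and the lists were chosen with earlier results of these data known. The text names every member, per list up to 4 genes past 0.05 by size of the change, Fbln2 and Fbln5 besides, and the 2 most similar genes of a member with a maximum of at least 20 CPM. The result of 1 list gene is not reported here. Alternatives were DESeq2 1.42.0, its size factors, no filter on low counts, a replicate block, each mouse left out, at most 20% mitochondrial UMIs, no doublet removal, a gate on marker UMIs, at most 1% proximal tubule UMIs and other weights for the mix. After seeing the data, at least 2000 UMIs, no unnamed clusters, and leaving out 2 mixed clusters or the clusters led by Selp, Sfrp2, Epha6 or, in T and NK cells, Gzma were added.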

Additional observations from a re-analysis of the deposited data

Results flagged for a closer look

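In the proximal tubule Trpm3 rose while it fell in intercalated cells of the same mice. The difference between these changes, fitted in edgeR with each mouse as a block, was 2.02 ± 0.11 (SE) on the log2 scale (adjusted p = 7.8e-07). For Sntb1 the change in T and NK cells exceeded that in intercalated cells by 2.44 ± 0.30 (adjusted p = 2.9e-07). For Cd24a the change in the distal convoluted tubule exceeded that in smooth muscle cells and pericytes by 1.97 ± 0.19 (adjusted p = 2.5e-09). In each pair all DOCA-salt mice lay above all sham mice in the first type and below them in the second. The pairs were chosen after their values were seen, so these p-values are too small. The differences were fitted only with the main settings. As given above, the call of Sntb1 in T and NK cells was lost without the cluster led by Ccl5, Gzma and Xcl1. It was also lost without sham mouse 3, DOCA-salt mouse 1 or DOCA-salt mouse 3. With at most 20% mitochondrial UMIs those of Sntb1 and Trpm3 in intercalated cells were lost. That of Trpm3 was also lost without DOCA-salt mouse 3. The part of the mix of clusters named intercalated was not tested. That of Cd24a in smooth muscle cells and pericytes was lost without sham mouse 3, DOCA-salt mouse 1 or DOCA-salt mouse 2.

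In 7 further pairs a member passed the edgeR test in another type, with no overlap between the groups, and lay the other way in the endothelial sums. The difference itself was not tested, since the endothelial contrast chose the members. Sema5a, Ccdc80 and Trpm3 had log2 changes of 1.26, 1.70 and 1.21 in the proximal tubule, and Vwa1 had -1.03 there. Cd24a had 1.11 in the distal convoluted tubule, Ccdc80 had 3.89 in principal cells and Sntb1 had 0.99 in T and NK cells. In principal cells Ccdc80 had few UMIs in the sham mice and passed the filter only through the DOCA-salt mice. The call of Sntb1 was lost without the cluster led by Ccl5, Gzma and Xcl1 and with the replicate block. It was also lost without sham mouse 3, DOCA-salt mouse 1 or DOCA-salt mouse 3. In the proximal tubule the call of Vwa1 was lost without sham mouse 1 or DOCA-salt mouse 3. That of Ccdc80 there was lost without DOCA-salt mouse 2 or 3.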

How the results depend on the processing

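No value that passed a test and no member at the fixed mix changed direction under the alternatives run, while log2 changes near 0 that passed no test did so for members in several other types, such as Trpm3 in the thick ascending limb (0.28, from -0.55 to 0.47). At the fixed mix the number of members that kept at least 0.5 of their change was 6 with every mouse left out in turn and 8 with no doublet removal, and the log2 ratio ranged over all alternatives from 1.73 to 1.96 for Fabp5, 1.87 to 2.25 for Vwa1, 1.51 to 2.68 for Lrg1 and -0.39 to -0.016 for Trpm3. The 2.68 for Lrg1 rests on few UMIs of the sham mice. Of 128 recomputed counts, 106 stayed within 1.5 times. Of the other recomputed values, 936 kept their call or size, 87 kept the direction but lost the call and 28 moved. With subtypes gated by UMIs, the pairs of member and subtype without overlap were 3 higher and 7 lower. With no filter on low counts, 20 pairs in single other types were higher and 8 lower, and 28 list genes were lower in the endothelial sums. DESeq2 called 22 list genes lower. With at most 20% mitochondrial UMIs, 3 pairs in other types were lower. With the replicate block, 1 member was higher in non-endothelial cells, 3 pairs in other types were lower and 7 list genes were lower. Among the calls lost with it were Sema5a in non-endothelial cells, Erc2 in the proximal tubule, Fabp5 in the distal convoluted tubule and intercalated cells, Trpm3 in intercalated cells and Sntb1 in T and NK cells. The labels do not say whether the mouse numbers pair the mice. Deviations of same-numbered mice correlated at -0.062, -0.58 and -0.13. Taken from the means of 3 mice per group, these values cannot decide it. Leaving out 1 mouse gave 8 to 9 higher and 13 to 15 lower pairs within subtypes, 1 to 3 members higher and 0 to 2 lower in non-endothelial cells, 6 to 10 higher and 2 to 6 lower pairs in other types, and 27 to 57 list genes higher and 8 to 23 lower. The cause of these shifts was not tested. The values of the Ehd3-positive cells are limited by their number, 13 to 36 per mouse, and those of some other types by few UMIs of a member.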
